A study of Oryza sativa with 26 samples.

Results

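In anthers of rice, 83 of 57194 probe sets had mean levels at least 1 log2 unit higher in both leptotene and zygotene to pachytene anthers than in any other stage. They were chosen on the measured values. The mean of log2(intensity + 1) was taken for each of 8 stages, and a probe set was kept where the lower of the M1 and M2 means was at least 1 above the highest mean of the other 6 stages. The size of that gap is called the margin here. M1 or M2 against any other stage is therefore described without a test, and tests were made only of stage differences that the choice did not use.

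The samples were whole anthers of Oryza sativa grown in paddy fields, with no treatment or genetic change named, and no cultivar named. Each array held 1 of 8 stages, here called by their labels. An1 anthers were forming archesporial cells (3 arrays), and Mei1 anthers held pollen mother cells in premeiotic S or G2 phase (3 arrays). M1 anthers held pollen mother cells in leptotene (4 arrays), M2 in zygotene to pachytene (3 arrays), and M3 from diplotene to the tetrad (4 arrays). P1 anthers held uninucleate microspores, P2 bicellular pollen and P3 tricellular mature pollen (3 arrays each). Within a stage the titles number biological replicates, but nothing says that these came from separate plants, so p-values measure the spread between these samples, which may be technical. All groups share field growth, a collection season from July to October, freezing before RNA extraction and 500 ng of total RNA as the start of labelling.

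In leptotene the chromosomes of the pollen mother cells condense into threads, and in zygotene and pachytene homologous chromosomes pair and synapse. Around these cells the tapetum, the innermost layer of the anther wall, begins to supply them with nutrients. Jasmonate, abscisic acid and ethylene are plant hormones of development and stress, and jasmonate is needed for normal stamen development. In whole anthers, fewer cells of a type and less RNA per cell cannot be told apart.

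An intensity of 1 is the 75th percentile of all probe sets of the same array, so levels are read across arrays for 1 probe set and not between probe sets. Sums over genes are likewise compared across arrays only, and probe sets with high values weigh most in them. Array medians lay between 0.242 and 0.428. Markers of the labelled cells moved across the stages. The summed intensity of 6 meiocyte genes was 51.4 to 55.4 in Mei1, 21.6 to 35.8 in M1, 8.54 to 11.5 in M2 and 6.98 to 8.49 in M3. Most of that sum before meiosis was MEL1, at 40.2 ± 2.57 in Mei1 (SD, n = 3) and 16 ± 5.77 in M1 (SD, n = 4). The mean log2 level of the 6 genes was 2.01 to 2.10 in Mei1, 1.82 to 2.04 in M1, 1.11 to 1.24 in M2 and 0.95 to 1.04 in M3. The sum of 10 tapetum genes was 26.5 to 35.1 in Mei1, 44.1 to 94.4 in M1, 183 to 251 in M2 and 370 to 439 in M3. The 10 did not all move alike. At the limits given below, limma called 4 of them higher in M2 than in M1, against 0.580% of all probe sets. It called 1 lower, against 0.268%. The 2 anther wall genes MSP1 and TDL1A summed to 24.5 to 26.8 in Mei1, 11.7 to 15.4 in M1 and 4.19 to 6.46 in M2. The part of these changes in the levels of the members was not tested. Among the M2 arrays, replicate 2 stood apart: the mean log2 level of 17 small heat shock genes was 3.46 there and 3.33 on P3 replicate 1, and at most 2.09 on each of the other 24 arrays. The sum of 3 green tissue genes was 9.07, 41.4 and 11.9 on the M2 arrays in replicate order, and 22.8 to 45.8 in M1. Whether tissue make-up differed between the M2 arrays was not tested.

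The 83 probe sets name 63 different genes, since 69 name 1 gene each, 1 names several genes and 13 name none. The gene table gives a symbol for 21 of the 63. A further limit on identity is that 14 of the 83 are of a probe set type that can also bind related transcripts. The margin had a median of 1.29 and ran from 1.01 to 3.21. It was 2 or more for 9 probe sets and under 1.1 for 21, and 2072 other probe sets had a margin from 0 to 1, so the members are the upper end of a continuous range. Just inside the limit lay LOC4333068 at 1.03, a probe set of LOC4345414 at 1.02 and TIFY10C, a jasmonate repressor of the JAZ family, at 1.01. Just outside lay CIGR1 at 0.99, a probe set with no gene name at 0.98 and JAZ10 at 0.98.

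The median log2 level over the members was 1.12 in An1 and 1.09 in Mei1, 3.19 in M1 and 3.42 in M2. It was 1.48 in M3, 0.62 in P1, 0.50 in P2 and 0.85 in P3, while the same median over all probe sets stayed between 0.33 and 0.48. The stage nearest to early prophase in level was M3 for 34 members, An1 for 24, P3 for 16, P1 for 4, Mei1 for 3 and P2 for 2. The lowest stage was a pollen stage, P1, P2 or P3, for 72 members, and it was P2 for 43. Before meiosis, 34 members had a mean log2 level under 1 in both An1 and Mei1, 29 reached between 1 and 2 in the higher of these stages and 20 reached at least 2.

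**Figure D1:**
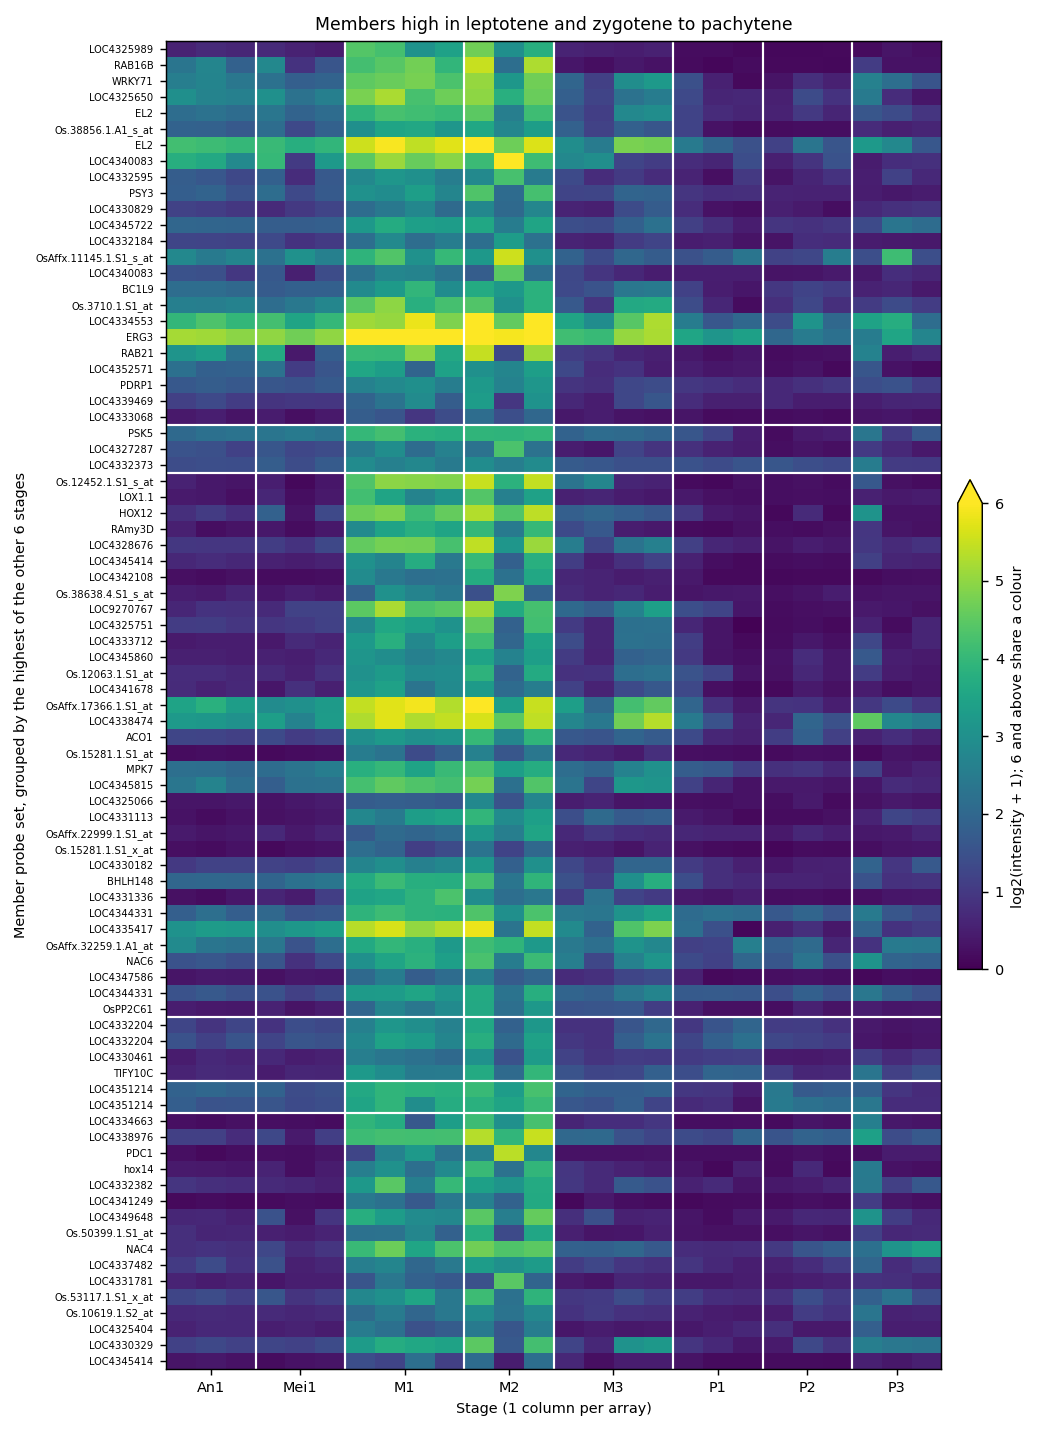
Level of each of the 83 members (1 line each, log2(intensity + 1), colour) on each of the 26 arrays, with the lines grouped by the stage that came closest to M1 and M2. The M1 and M2 columns are brightest, the middle M2 column (replicate 2) is darker for most members, and the P1 to P3 columns hold the lowest levels for 72 of them.

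All 7 arrays of M1 and M2 lay above all 19 other arrays for 47 members, and for 36 the ranges overlapped. This count was fixed in part by the choice of members, and 0.404% of all probe sets had such a gap. In 29 of the 36 overlapping members the lowest of the 7 early arrays was M2 replicate 2, and without that array 70 of the 83 members had no overlap, against 0.785% of all probe sets. On the other side, the highest of the 19 other arrays was M3 replicate 4 for 30 of the 83 members. It was P3 replicate 1 for 14 and Mei1 replicate 1 for 13, and the matching shares of all probe sets were not computed. Replicate 2 was the lowest of the 3 M2 arrays for 73 members, against 33.3% of all probe sets, and the highest for 9. The median level of the members was 3.87, 2.57 and 3.68 on the 3 M2 arrays in replicate order, and 3.12, 3.43, 3.06 and 3.11 on the M1 arrays. The low member levels and the high small heat shock levels of M2 replicate 2 occurred on the same array, and the part of the one in the other was not tested. Without it 77 members still met the choice, 6 did not and 16 other probe sets did. The 6 were both probe sets of LOC4340083, those of LOC4332184, LOC4327287 and LOC4331781, and 1 with no gene name.

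**Figure D2:**
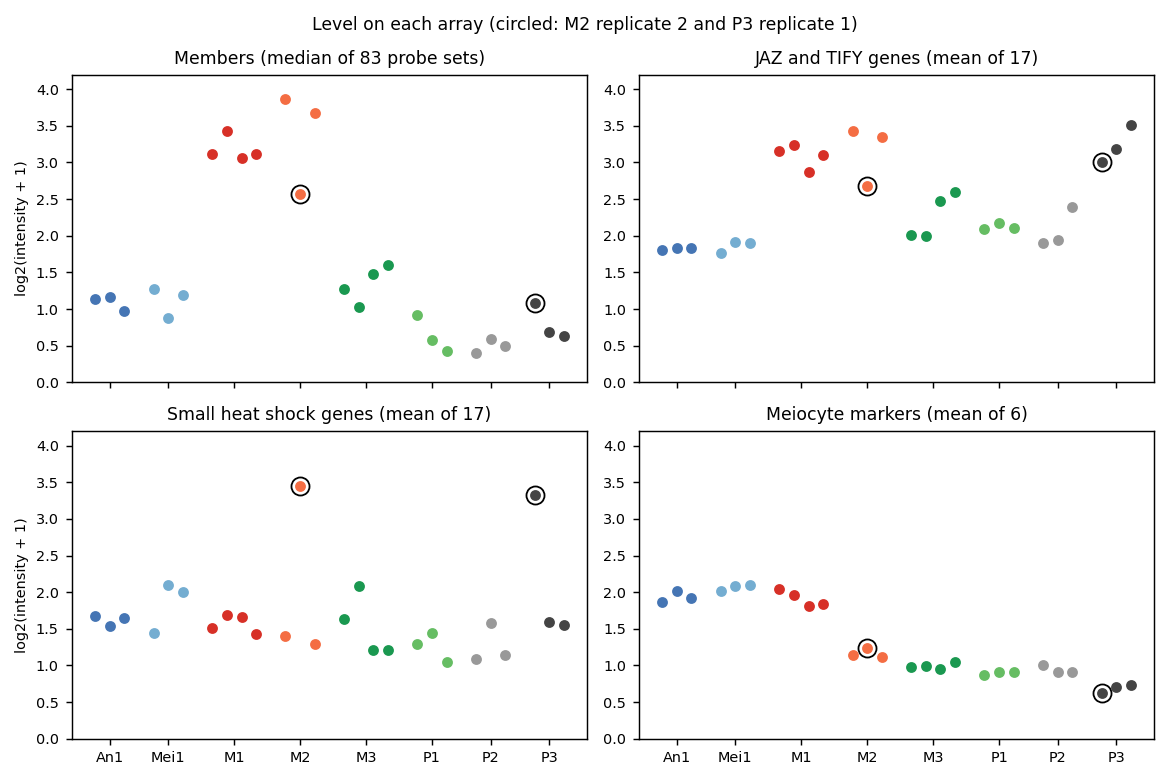
Mean or median log2(intensity + 1) on each array for the members, 17 JAZ and TIFY genes, 17 small heat shock genes and 6 meiocyte markers, with M2 replicate 2 and P3 replicate 1 circled. M2 replicate 2 has the lowest member median of the 7 early arrays, 2.57, and the highest small heat shock mean of all arrays, 3.46.

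Among the enzymes, LOX1.1 had the widest margin of a gene with a symbol, 2.85. It encodes a lipoxygenase, an enzyme that adds oxygen to polyunsaturated fatty acids. This is the first step towards oxylipins, a class that includes jasmonate, and whether LOX1.1 serves jasmonate was not tested. The intensity of LOX1.1 was 17, 10.4, 5.39 and 7.40 on the M1 arrays and 20.1, 5.10 and 9.75 on the M2 arrays. On the 19 other arrays it ran from 0.159 to 0.569, with a median of 0.331. The lowest early array was M2 replicate 2, still above every other array, and the levels of the other stages were too low for a fold to be read precisely.

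RAmy3D encodes an alpha-amylase, a starch-degrading enzyme known in rice for its induction when cells lack sugar. It stood at 6.29, 10.1, 12.7 and 10.4 in M1 and at 15.0, 4.55 and 15.3 in M2. In M3 it was 1.55, 2.16, 0.390 and 0.330, so M3 replicates 1 and 2 were higher than replicates 3 and 4, and none reached the early arrays. Its An1 mean was 0.279 ± 0.139 (SD, n = 3) and its Mei1 mean 0.253 ± 0.0977 (SD, n = 3). The neighbouring gene in the annotation, LOC4345815, was also a member, with a margin of 1.31 against 2.43 for RAmy3D. The member probe set of LOC4345815 is of the type that can bind related transcripts. LOC4345815 differed in having a level before meiosis, 4.33 ± 0.967 in An1 (SD, n = 3).

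PDC1 encodes pyruvate decarboxylase, the first enzyme of ethanol fermentation. It was 1.40, 5.33, 8.40 and 3.84 on the M1 arrays and 5.20, 40.5 and 5.81 on the M2 arrays, and at most 0.371 on any other array. M2 replicate 2 was here the highest array, in contrast to most members. The margin stayed at 1.98 without that array, because M1 set it.

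PDRP1, the regulatory protein of pyruvate, phosphate dikinase, had a margin of 1.05. Its mean was 5.75 ± 0.940 in M1 (SD, n = 4) and 7.20 ± 1.64 in M2 (SD, n = 3), against 2.24 ± 0.154 in An1 (SD, n = 3). ACO1, which encodes the last enzyme of ethylene synthesis, was 6.89, 8.48, 7.03 and 7.64 in M1 and 15.1, 5.73 and 14.1 in M2, and at most 2.85 elsewhere. PSY3 encodes a phytoene synthase, the entry step of the carotenoid pathway from which abscisic acid is made. It was 7.17, 6.52, 9.35 and 5.69 in M1 and 19.2, 3.28 and 17.9 in M2. Mei1 replicate 1 reached 3.44, so the ranges of PSY3 overlapped through M2 replicate 2.

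RAB16B and RAB21 are neighbouring genes of the annotation and encode dehydrins, hydrophilic proteins that accumulate in seeds and in tissue treated with abscisic acid. RAB16B was 17.5, 20.8, 25.4 and 14.5 in M1 and 43.8, 3.53 and 37.5 in M2. Before meiosis it was 4.04, 5.66 and 2.67 in An1 and 6.0, 0.845 and 1.99 in Mei1, and in M3 it lay between 0.158 and 0.314. M2 replicate 2 lay inside the range of the premeiotic arrays, and the other 6 early arrays stood above it.

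RAB21 had the same order of arrays within M2, at 43.6, 1.47 and 34.4, and M1 levels of 15.4, 15.1, 29.8 and 11.3. Mei1 replicate 1 was at 11.7 and the other Mei1 arrays at 0.339 and 2.48, so 1 premeiotic array reached the lowest M1 array. The margin of RAB21 was set by An1, with a mean of 6.87 ± 2.84 (SD, n = 3). M2 replicate 2, at 1.47, lay below that mean and below the Mei1 arrays at 11.7 and 2.48. The margins were 2.0 for RAB16B and 1.08 for RAB21, and 2.02 and 1.25 without M2 replicate 2. A further probe set of RAB21, of the type that can bind related transcripts, had a margin of 0.90.

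Of the transcription factor genes, HOX12 and hox14 encode homeodomain-leucine zipper proteins. HOX12 was 24, 27.2, 16.3 and 23.1 in M1 and 38.5, 19.6 and 41.3 in M2. It was 2.50, 2.92, 2.45 and 2.03 in M3, and in P3 it was 7.47, 0.223 and 0.221. The early arrays did not overlap with the others, and the highest of the others was P3 replicate 1, the mature pollen array with the high small heat shock levels. Its margin was 2.75.

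The gene hox14, with a margin of 1.67, was 4.92, 7.23, 3.60 and 6.26 in M1 and 15.8, 3.77 and 14.5 in M2. In P3 it was 4.50, 0.225 and 0.185, so the same P3 array stood out as for HOX12. It overlapped with M1 replicate 3 and M2 replicate 2. P3 replicate 1 was the highest P3 array for 51 members, against 19% of all probe sets, and for 12 of the 16 members whose nearest stage was P3.

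NAC4 and NAC6 encode NAC-domain factors. NAC4 was 15.7, 24.3, 10.5 and 18.7 in M1 and 24.9, 19.5 and 21.5 in M2, and M2 replicate 2 was close to the other M2 arrays. It was 3.64, 7.62 and 9.98 in P3, where replicate 3 came near to the lowest M1 array without reaching it. NAC6, known from stress responses, had mean levels of 10.1 ± 2.61 in M1 (SD, n = 4) and 13.1 ± 7.32 in M2 (SD, n = 3), and overlapped with M3, which reached 7.69.

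WRKY71, a repressor of gibberellin signalling in the rice aleurone, was 21.6, 23.8, 26.2 and 18.6 in M1 and 32.1, 8.02 and 25.1 in M2. In M3 it was 2.91, 1.19, 6.73 and 8.50, so replicate 4 of M3 was above M2 replicate 2. BHLH148, a basic helix-loop-helix factor that acts with JAZ proteins in the jasmonate and drought response of rice, was 11.7, 16, 12.6 and 12.4 in M1 and 17.4, 4.02 and 14.3 in M2. Its M3 arrays were 1.82, 1.16, 6.98 and 12.6, again with replicates 3 and 4 above replicates 1 and 2, and replicate 4 inside the M1 range. Over all members the highest M3 array was replicate 3 or 4 for 52, against 57.7% of all probe sets.

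**Figure D3:**
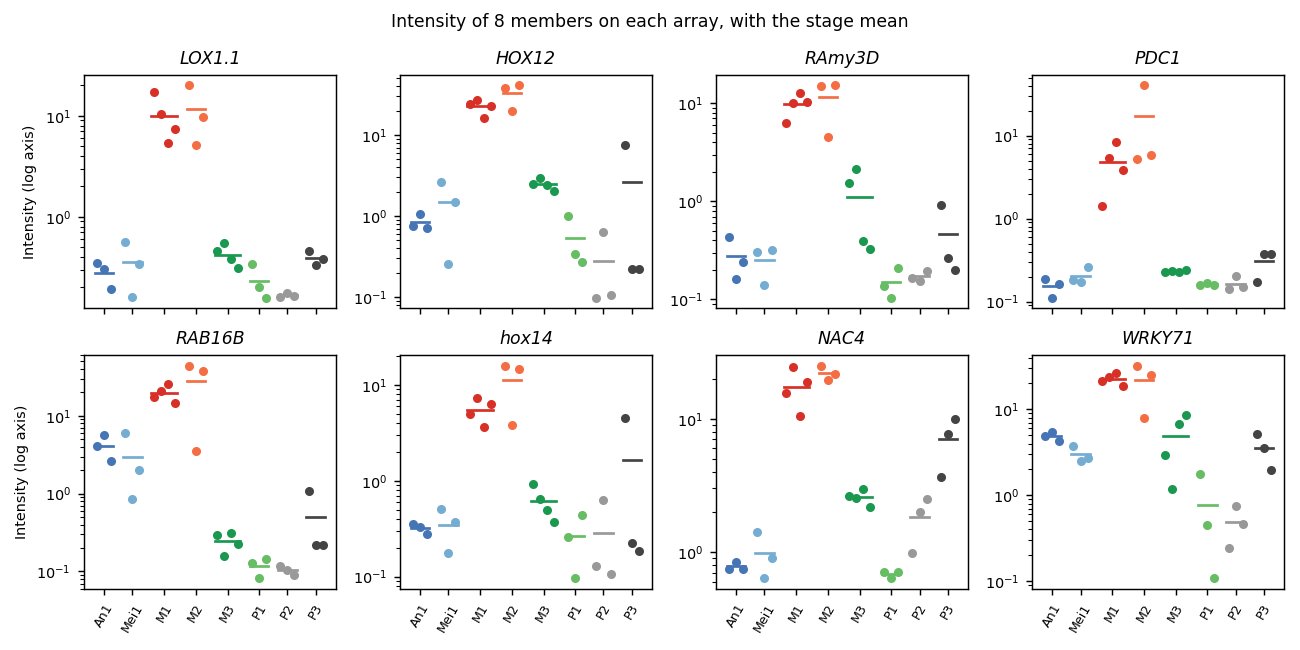
Intensity (log axis) of 8 members on each array (points) with the stage mean (lines). LOX1.1, HOX12, RAmy3D, PDC1 and NAC4 have no array outside M1 and M2 inside the early range, while M2 replicate 2 is at 3.53 for RAB16B and P3 replicate 1 is at 4.50 for hox14.

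Genes of signalling, growth and the cell wall made up the rest of the members with symbols. PSK5 encodes a precursor of phytosulfokine, a peptide that promotes cell growth and division. It was 15.0, 17.6, 13.3 and 12.7 in M1 and 14.1, 14.0 and 14.6 in M2, and the highest other array was Mei1 replicate 2 at 4.57. The 3 M2 arrays of PSK5 lay close together, M2 replicate 2 included, with a mean of 14.3 ± 0.331 (SD, n = 3).

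EL2, which encodes an inhibitor of cyclin-dependent kinases, was represented by 2 probe sets with margins of 1.56 and 1.39. The probe set with the larger margin was 13.9, 17.9, 16.8 and 15.6 in M1 and 21.6, 4.94 and 16.7 in M2. M3 replicates 3 and 4 reached 5.97 and 6.73 there, above M2 replicate 2. ERG3, a small elicitor-responsive protein with a calcium-binding C2 domain, was 68.6, 70.2, 79.5 and 68.7 in M1 and 90.9, 59.7 and 91.0 in M2. It already stood at 33.4 ± 2.88 in An1 (SD, n = 3), so its margin of 1.08 was set by a premeiotic stage.

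MPK7, a mitogen-activated protein kinase, had means of 13.4 ± 2.56 in M1 (SD, n = 4) and 13.4 ± 4.83 in M2 (SD, n = 3), and 4.71 ± 2.0 in M3 (SD, n = 4). BC1L9, a member of the COBRA family of cell wall proteins, had means of 8.97 ± 3.71 in M1 and 11.1 ± 2.64 in M2. OsPP2C61, a protein phosphatase of the PP2C family, had means of 4.78 ± 1.52 and 7.70 ± 3.93. TIFY10C was 8.39, 6.51, 4.45 and 4.60 in M1 and 11.7, 3.21 and 14.7 in M2, and P3 replicate 1 overlapped with these at 4.06. Of these, MPK7, BC1L9 and OsPP2C61 had no overlap between the early arrays and the others.

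Genes with no symbol had margins as wide as those with one. LOC4325989, with a margin of 3.14, was 20.2, 17.7, 7.34 and 9.72 in M1 and 25.1, 6.94 and 12.6 in M2, and at most 0.639 on any other array. LOC4342108, with a margin of 1.89, was at most 0.553 elsewhere and at 6.49, 4.28, 3.56 and 3.75 in M1. Both had clear gaps to the other stages on every array. LOC4328676 (margin 2.39), LOC4345414 (2.07), LOC4334663 (2.05), LOC4338976 (2.02), LOC9270767 (1.86) and LOC4351214 (1.83) completed the 8 widest. LOC4334663 was the only one of the 8 whose ranges overlapped, through M1 replicate 3 at 2.14 and P3 replicate 1 at 5.03. The widest margin of all, 3.21, belonged to a probe set that names no gene, with means of 26.7 ± 4.92 in M1 (SD, n = 4) and 33.4 ± 17.3 in M2 (SD, n = 3). That probe set, and the one of LOC4351214 with the margin of 1.83, are of the type that can bind related transcripts.

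Probe sets that the choice left out give another reading of some member genes. For 13 member genes there were 15 such probe sets, of which 11 had a margin above 0. In 9 of the 15 the lower of the M1 and M2 log2 means was under 1, so they carried little signal. The other 6 had margins from 0.72 to 0.93 and belonged to RAB21, BC1L9 (0.72), WRKY71 (0.83), LOC4352571 (0.93) and LOC4340083. The 6 genes EL2, LOC4332204, LOC4340083, LOC4344331, LOC4345414 and LOC4351214 had 2 member probe sets each. Besides the adjacent pairs, EL2 lay 5 genes from LOC4331336.

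The members were then compared between M1 and M2, a difference whose direction the choice does not set. The choice used the lower of these means, which favours probe sets high in both. Shares of members beside those of all probe sets are therefore descriptions here. With limma over all 26 arrays, 2 of 83 members (2.41%) passed both limits for a call, an adjusted p under 0.05 (Benjamini-Hochberg) and a log2 difference of at least 1, against 0.847% of the 47799 probe sets tested. The 1 higher in M2 stands against 0.580% of all probe sets and the 1 lower against 0.268%. At an unadjusted p under 0.05 there were 9 (10.8%), against 25.4% of all probe sets. The median difference was 0.16, against 0.05 over all probe sets. LOC4331336 was 9.94, 10.8, 13.7 and 18.6 in M1 and 6.73, 3.52 and 4.2 in M2. It fell by 1.29 on the log2 scale (SE 0.24, limma adjusted p = 0.0013), and the ranges did not overlap. The other call was a probe set with no gene name, which was 2.21, 3.22, 2.89 and 3.37 in M1 and 8.10, 4.88 and 10.3 in M2. It rose by 1.12 (SE 0.15, limma adjusted p = 3.0e-05), also with no overlap, and by 0.91, under the limit on size, without M2 replicate 3.

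The count depended on M2 replicate 2. Without that array 11 members were called, against 1.01% of the 47928 probe sets then tested, and the median difference was 0.50. By direction, 10 members were higher in M2 and 1 was lower, and over all probe sets 323 were higher and 160 lower. M2 replicate 2 was the lowest M2 array for 73 members, against 33.3% of all probe sets. Leaving it out therefore raised the M2 means of these 73, so the larger count is a description only. Without M2 replicate 1 the count was 4. The 10 that were higher without M2 replicate 2 were hox14 (1.34), PSY3 (1.27), TIFY10C (1.05), LOC4338976, LOC4342108, LOC4325751, LOC4325066 and 3 probe sets with no gene name, and LOC4331336 was lower (−1.13). With that array in, hox14, PSY3 and TIFY10C did not pass. Of all members, 55 (66.3%) had a higher mean in M2 than in M1, against 72.8% of all probe sets.

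From An1 to Mei1, 0 of 83 members were called by limma, against 0.0209% of all probe sets, and the median difference was −0.04. At an unadjusted p under 0.05 there were 0 members, against 2.47% of all probe sets. Of the 83, 34 had a mean log2 level under 1 in both stages and could not reach a difference of 1, so the count bears on the other 49.

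The levels after early prophase were compared with those before it. From Mei1 to M3, 8 of 83 members (9.64%) were called by limma, against 4.02% of all probe sets, and the median difference was 0.18 against −0.01. At an unadjusted p under 0.05 there were 22 (26.5%), against 30.5%. In 21 members both means were under 1 on the log2 scale, so that no call was possible. Of the 8, 7 were higher in M3 (2.58% of all probe sets) and 1 was lower (1.44%). LOC9270767 was 0.639, 1.26 and 1.27 in Mei1 and 3.16, 2.43, 5.35 and 9.43 in M3. It rose by 1.45 (SE 0.33, limma adjusted p = 0.0021). LOC4331113 was 0.202, 0.237 and 0.309 in Mei1 and 1.72, 3.23, 2.25 and 2.50 in M3. It rose by 1.44 (SE 0.22, limma adjusted p = 3.0e-05), and neither gene overlapped between the stages.

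The other higher calls were the unnamed probe set with the widest margin (1.23), NAC6 (1.14), LOC4344331 (1.09), LOC4328676 (1.08) and OsPP2C61 (1.01). OsPP2C61 was 0.480, 0.254 and 0.379 in Mei1 and 1.90, 2.02, 2.11 and 1.12 in M3, so all 4 M3 arrays were above all 3 Mei1 arrays. RAB16B was the 1 member that fell, by 1.44 (SE 0.51, limma adjusted p = 0.047), from 2.94 ± 2.71 (SD, n = 3) to 0.248 ± 0.0720 (SD, n = 4). Its call, like those of NAC6 and of that unnamed probe set, was lost under most of the alternative settings. The count was 3 without Mei1 replicate 2 or M3 replicate 1, and 4 without Mei1 replicate 3, M3 replicate 3 or M3 replicate 4. It was 5 without any 1 An1 array, Mei1 replicate 1, M1 replicate 2 or 4, P1 replicate 1 or 2, or P2 replicate 1 or 3.

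The choice caps the level of each later stage but leaves free the difference between M3 and mature pollen anthers. From M3 to P3, 19 of 83 members (22.9%) were called by limma, against 11.4% of all probe sets. At an unadjusted p under 0.05 there were 30 (36.1%), against 70.3%. In 24 members both means were under 1 on the log2 scale, so that no call was possible. Of the 19, 18 were lower in P3, against 5.18% of all probe sets, and 1 was higher, against 6.25%. The median difference was −0.31, while over all probe sets it was 0.12, and median centring moved the latter by −0.12. Without P3 replicate 1 the count was 27 of 83, against 12.6% of the 50491 probe sets then tested. By direction, 26 members were lower and 1 was higher, and over all probe sets 2906 were lower and 3465 higher.

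MPK7 was 3.40, 2.84, 5.36 and 7.23 in M3 and 1.29, 0.338 and 0.499 in P3. It fell by 1.71 (SE 0.25, limma adjusted p = 5.7e-06) with no overlap. ERG3 was 16.8, 15.4, 32.4 and 37.0 in M3 and 4.75, 10.5 and 5.68 in P3. It fell by 1.69 (SE 0.26, limma adjusted p = 1.1e-05), and the kinase and the elicitor-responsive gene were both lower on each P3 array than on any M3 array.

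The largest falls were of a probe set with no gene name (−2.46, SE 0.51), LOC4335417 (−2.19, SE 0.66) and LOC9270767 (−2.13, SE 0.33). LOC4335417 overlapped between the stages, through M3 replicate 2 at 2.69 and P3 replicate 1 at 2.80. Of the enzymes and signalling genes, BC1L9 (−1.37), PSY3 (−1.14), ACO1 (−1.09) and OsPP2C61 (−1.05) fell with no overlap between the stages. OsPP2C61 fell short of the limit on size without M3 replicate 3, at −0.99. BHLH148 (−1.26) and the EL2 probe set with the smaller margin (−1.19) fell with overlapping ranges. Without M3 replicate 3 the difference was −0.84 for EL2 and −1.04 for BHLH148, and without M3 replicate 4 it was −0.86 and −0.78. Without P3 replicate 3 it was −0.72 for EL2 and −1.16 for BHLH148, and without P3 replicate 2 it was −1.14 for BHLH148, and none of these passed. HOX12 passed once P3 replicate 1 was left out, at −1.50.

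NAC4 was the 1 member that rose from M3 to P3, from 2.63, 2.56, 2.95 and 2.18 to 3.64, 7.62 and 9.98. The difference was 1.09 (SE 0.25, limma adjusted p = 0.00072), and all 3 P3 arrays were above all 4 M3 arrays. It was 0.82 after quantile normalization, 0.98 after median centring, 1.00 without P3 replicate 2 and 0.83 without P3 replicate 3, each under the limit on size with a limma adjusted p of at most 0.011.

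**Figure D4:**
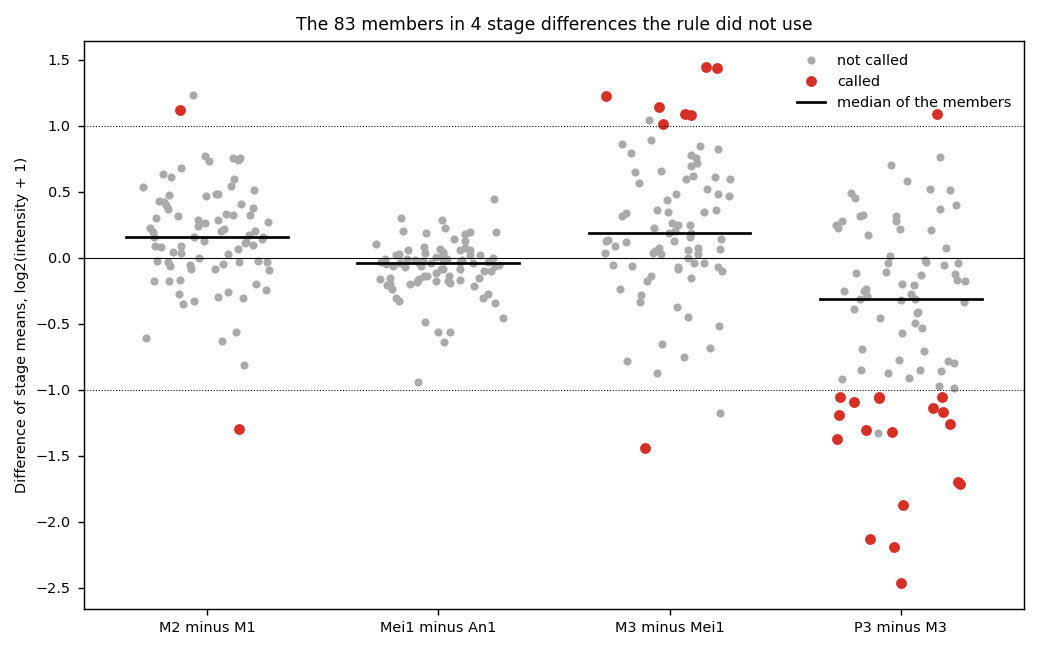
Difference of stage means (log2(intensity + 1), later minus earlier) of the 83 members (points) in 4 comparisons that the choice did not use, with called members in red, their median as a bar and dotted lines at the limit on size. The An1 to Mei1 points lie around 0 with no call, and 18 of the 19 calls from M3 to P3 lie below 0.

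Genes of the same families and pathways were taken by their symbols, whether or not they moved. Jasmonate repressors of the JAZ and TIFY families bind transcription factors until the hormone triggers their breakdown. Of 17 such genes measured, 1, TIFY10C, was a member, and 4 had a margin above 0. Over 17905 single genes, 63 (0.352%) were members and 5.66% had a margin above 0. JAZ10 had means of 45.4 in M1 and 42.5 in M2 and a margin of 0.98, and JAZ13 had means of 32.5 and 33.4 and a margin of 0.63. JAZ12 had means of 22.8 in M1, 28.5 in M2 and 21.4 in P3, which left a margin of 0.11. The 17 genes summed to 74.5 to 96.4 per array in Mei1, 232 to 326 in M1, 190 to 415 in M2, 115 to 208 in M3 and 229 to 576 in P3.

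In the tested comparisons, 0 of the 17 jasmonate repressors were called between M1 and M2, against 0.847% of all probe sets. From Mei1 to M3, 2 were higher (JAZ9 and JAZ11), against 2.58%. From M3 to P3, 7 were higher, against 6.25%, and 1 was lower (JAZ13), against 5.18%. Of 19 genes listed by symbol for jasmonate synthesis, 1, LOX1.1, was a member and 5 had a margin above 0. The list takes lipoxygenases whichever carbon they oxidise, so a lipoxygenase in it, LOX1.1 included, need not lead to jasmonate. AOS, allene oxide synthase, had means of 10.2 in M1 and 11.1 in M2, against 4.93 in M3 and 4.86 in P3, and a margin of 0.95. LOX5 followed with 0.94 and AOC3, allene oxide cyclase, with 0.78. None of the 17 of these genes that passed the filter was called between M1 and M2, which at a share of 0.847% over all probe sets says nothing about the list.

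Among 25 homeobox genes with a HOX symbol, 2 were members and 7 had a margin above 0. HOX24, with means of 3.02 in M1 and 7.01 in M2 and at most 0.992 in any other stage, had a margin of 0.93, and the other 4 were at 0.16 or less. Of 8 NAC genes 2 were members, of 6 WRKY genes 1 and of 12 bHLH genes 1. The lists of ERF, AP2 and DREB (13 genes), MYB (10), cytochrome P450 (29), BURP (7) and glutathione transferase genes (6), and of protease inhibitors and pathogenesis proteins (12), held no member, as lists of that size mostly would at this share.

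Of 15 meiosis genes measured, 1 had a margin above 0, SDS, a meiotic cyclin, at 0.10. None was a member, which at a share of 0.352% over all genes says nothing about the list. MEL1, a germ-cell Argonaute, was lower in M2 than in M1, a call made for 0.268% of all probe sets. MEL1 and 1 of 2 genes with the symbol PSS1 were lower in M3 than in Mei1, against 1.44% of all probe sets. Both PSS1 genes were taken by symbol, and their part in meiosis was not checked. Of 42 heat shock protein and heat shock factor genes, 4 had a margin above 0 and 0 were members. Of the 41 that were tested, 0 were called between M1 and M2, against 0.847% of all probe sets. The mean log2 level of 17 small heat shock genes was 1.40, 3.46 and 1.29 on the M2 arrays in replicate order. With so wide a spread within M2, the lack of calls does not show unchanged levels.

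**Figure D5:**
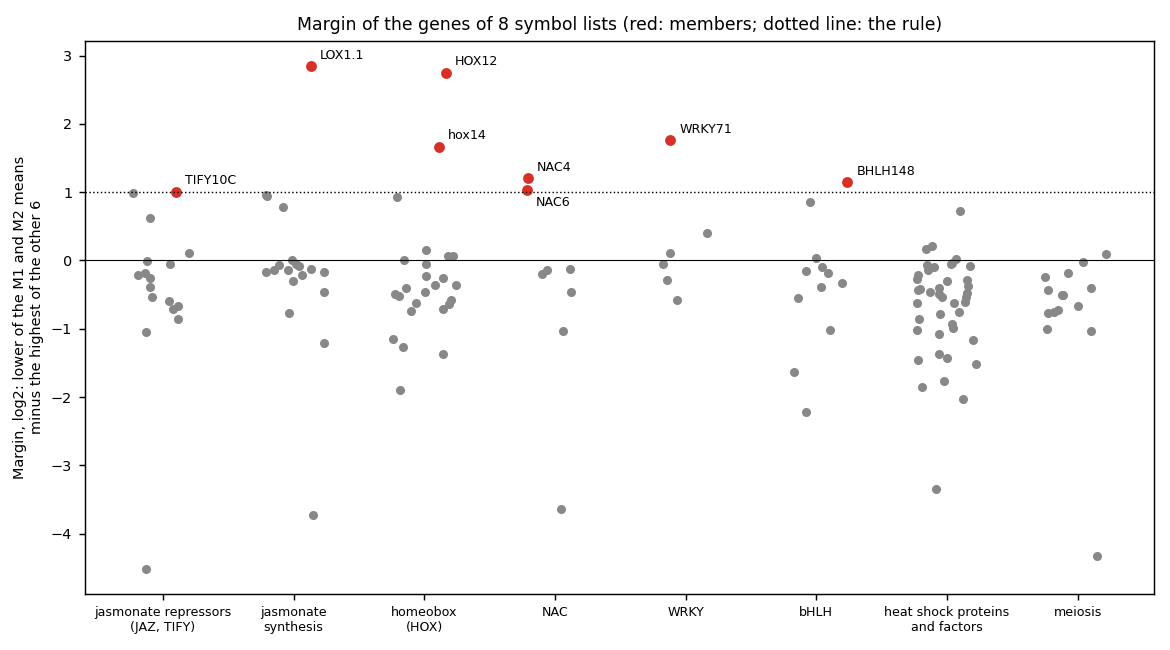
Margin of each measured gene in 8 symbol lists (log2, points), with members in red and the limit of the choice as a dotted line at 1. Members appear in the jasmonate, homeobox, NAC, WRKY and bHLH lists, and none in the heat shock and meiosis lists.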

How the data were processed

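The deposited value table holds intensity on a linear scale for 57381 probe sets on 26 Affymetrix Rice Genome Arrays, 1 array per sample. The 75th percentile over all probe sets is 1 on every array, so the deposited intensities were divided by it, array by array. The submitters' processing notes name GCOS 1.3, with no role given. The background correction and the way probes were summarised are not given in the sources used here. Arrays have no counts behind their values, so their number limits the precision.

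Control probe sets (187) were left out. The values were analysed as log2(intensity + 1), with no further scaling, so differences at low levels are compressed. Probe sets whose mean was above the 40th percentile in at least 1 stage were tested, 47799 in all. Every member passed through M1 and M2, the stages it was chosen on, also where it is low in the stages compared, so its shares of calls there are descriptions. limma 3.58.1 in R 4.3.3 was fitted to stage means over all 26 arrays with an intensity trend, without a replicate block, and its tests were two-sided and Benjamini-Hochberg adjusted over all probe sets tested. The fit was also run on simulated data with equal noise on all arrays. Those data held no array that stood apart, so that run does not bear on M2 replicate 2 or P3 replicate 1. Other steps used Python 3.11.15 with matplotlib 3.10.9, numpy 2.4.6 and pandas 2.3.3.

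The members and gene lists were chosen with earlier results of these data known. Named were all members with a symbol, the 8 widest margins without one, the largest called differences, the members and non-members nearest the limit, members that share or neighbour a gene, and up to 4 genes per symbol list. Other genes listed behind a small count, and 10 members called without M2 replicate 2, were named after their values were seen. Probe sets were named from the array's gene annotation, with symbols and gene order from RefSeq's genes of the ASM3414082v1 assembly, which held all 63 member genes. For the margins, levels and tests of lists, the probe set with the highest mean stood for a gene. In counts of member genes, a gene counted if any probe set naming it alone was a member. The alternatives were pseudocounts of 0.5 and 4, quantile normalization, median centring, no filter or one at the 60th percentile, no trend, array weights, only the arrays of the compared stages, a replicate block, and leaving out single arrays or a pair of them. Sequences and coordinates were not used here.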

Additional observations from a re-analysis of the deposited data

Results flagged for a closer look

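In groups of 4 arrays, the highest or lowest value was compared with its neighbours by Dixon's test, for 37 named members and the member median. Of 76 such groups 4 passed, and chance alone passes about 1 group in 20. ERG3 was 79.5 on M1 replicate 3 and 68.6 to 70.2 on the other M1 arrays. LOC4338976 was 16.4 on M1 replicate 1 and 17.3 to 17.4 on the others. LOC4331336 was 3.79 on M3 replicate 2 and 1.02 to 1.3 on the others. The median log2 level over the members was 3.43 on M1 replicate 2 and 3.06 to 3.12 on the other M1 arrays. Groups of 3 arrays, M2 among them, were not tested in this way.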

How the results depend on the processing

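The number of members, 83, was 122 with a pseudocount of 0.5, of which all 83 were shared, and 25 with a pseudocount of 4, all of them members. It was 103 after quantile normalization (82 shared) and 86 after median centring (79 shared), and 66 to 97 with 1 array left out. A pseudocount of 4 left 0 members called from M1 to M2, 0 from Mei1 to M3 and 4 from M3 to P3, since it compresses differences at these levels. From M1 to M2 the count of 2 was 2 to 11 with 1 array left out, and 14 without both M2 replicate 2 and P3 replicate 1. From Mei1 to M3 the count of 8 was 5 with no filter, 5 with no trend and 5 after quantile normalization, and 3 to 9 with 1 array left out. The cause was not tested. From M3 to P3 the count of 19 was 14 to 27 with 1 array left out, and from An1 to Mei1 it was 0 under each setting.

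Of 29 called differences of single members, recomputed for 1073 values in all, 935 kept direction and call, 138 kept the direction only and 0 reversed. With a replicate block the counts were 2, 0, 6 and 16. The replicate numbers were not taken as pairs: deviations of same-numbered M1 and M2 arrays correlated at 0.15, 0.19 and 0.09, and those of the other comparisons at −0.30 to 0.03. The calls of list genes that are no members were not recomputed under these settings.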
